A study of Mus musculus with 19 samples.

Results

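Gene expression in the dorsal root ganglia of naive MaFIA mice given the dimerizing drug AP20187 was compared with that of naive MaFIA mice given vehicle. The comparison rests on 9 of the 19 libraries of the series, 4 with AP20187 (numbered 1, 3, 4 and 5) and 5 with vehicle (numbered 1 to 5), chosen by their labels alone. All mice were male and homozygous for the macrophage Fas-induced apoptosis (MaFIA) transgene. They received 1 intraperitoneal injection per day for 5 days. The naive mice had no knee surgery and were matched in age to the mice of the other 10 libraries, which had destabilization of the medial meniscus (DMM, a surgical model of knee osteoarthritis) 8 weeks earlier and received AP20187 (n = 5) or vehicle (n = 5). Ganglia of segments L3 to L5 were pooled for each library, and poly(A) RNA was sequenced with a stranded kit. Since every mouse carried the transgene, an action of AP20187 through it and an action of the drug without it cannot be told apart here. The labels give no batch, cage or day, and they do not say whether each library came from 1 mouse. Each n counts libraries, and the SDs and p-values measure the spread between these libraries, which may be technical in part.

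In the MaFIA strain a membrane-tethered suicide receptor is expressed from the Csf1r promoter. AP20187 joins 2 copies of it, which starts Fas-type cell death. Csf1r encodes the receptor for the growth factors CSF1 and IL-34, on which most tissue macrophages depend, and the promoter is also used by monocytes and, more weakly, by other blood cells. Dorsal root ganglia hold the cell bodies of sensory neurons wrapped by satellite glial cells, with Schwann cells, vessels and resident macrophages between them. Neutrophils store their proteins in granules whose genes are transcribed in precursor cells, mainly in bone marrow. In bulk tissue, fewer cells of a type and less RNA per cell cannot be told apart.

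The naive libraries held 60984830 to 64597387 counts with AP20187 and 61566267 to 74691396 with vehicle. Values below are counts scaled to library size (CPM) with TMM factors, and a group was at the floor of detection at 3 counts per library, which is 0.0504 CPM with AP20187 and 0.0442 CPM with vehicle. Mitochondrial transcripts took 9.38% to 14.8% of the counts with AP20187 and 5.08% to 10% with vehicle, and ribosomal protein genes took 1.55% to 3.62% and 0.713% to 1.6%. The number of genes with any count was 23327 to 24688 with AP20187 and 24616 to 26993 with vehicle. The part of these differences in the results below was not tested. A marker of the labelled tissue was present: the nociceptor sodium channel Scn10a was at 96.9 CPM or more in every naive library.

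AP20187 was accompanied by a rise of most listed granulocyte and inflammatory transcripts and a fall of most listed early B-lineage transcripts. Of 22778 genes tested, 2548 (11.2%) passed an adjusted p of 0.05 in edgeR's quasi-likelihood test, 1962 of them higher (8.61% of all genes) and 586 lower (2.57%). Among the higher genes 718 differed at least 4-fold in the model, and among the lower genes 140. The median log2 fold change was 1.68 over the higher genes, -1.04 over the lower genes and -0.07 over all genes. In 2138 genes (9.39%) all 4 AP20187 libraries lay above all 5 vehicle libraries, and in 1401 (6.15%) below. Higher genes were 77% of those passing, 62.9% without TMM scaling and 39.6% on log2 FPKM. The total fell to 994 without AP20187 library 3, to 1191 without AP20187 library 1, and to 1368, 1292 and 1566 without vehicle libraries 1, 2 and 5.

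**Figure D1:**
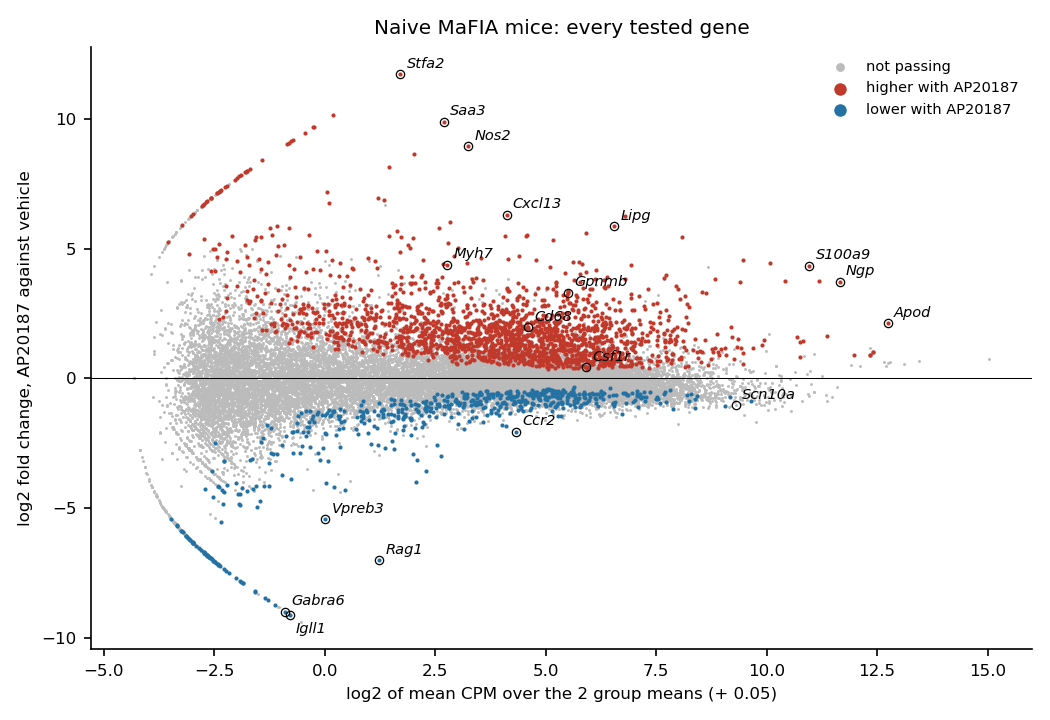
Each point is 1 of the 22778 tested genes. The horizontal axis is the log2 of the mean CPM of both naive groups (plus 0.05) and the vertical axis the log2 fold change of AP20187 against vehicle; red and blue points passed an adjusted p of 0.05 (1962 higher, 586 lower). Genes along the outer edges had 0 counts in 1 group, so how large their fold change is follows from the prior count that edgeR adds.

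None of the 15 listed transcripts of macrophages, the main cells that carry the suicide receptor, fell with AP20187. Csf1r was at 57.8, 86.8, 71.5 and 61.7 CPM in AP20187 libraries 1, 3, 4 and 5 and at 50.9, 36.6, 98.2, 49.9 and 19.2 CPM in vehicle libraries 1 to 5. The groups overlapped, and the log2 fold change was 0.45 ± 0.48 (SE), with an adjusted p of 0.554 (edgeR). Adgre1, which encodes the macrophage surface protein F4/80, was at 41.6 ± 9.14 CPM (SD, n = 4) against 17.8 ± 14.8 (SD, n = 5). Its adjusted p was 0.149 in edgeR with all libraries and 0.0295 without vehicle library 3, in which Adgre1 was at 43.6 CPM against 14.9 or less in the other vehicle libraries. Cd68, a lysosomal protein of phagocytes, was at 41.9, 53.8, 26.3 and 31.9 CPM with AP20187 and between 5.25 and 17.1 CPM with vehicle. Every AP20187 library exceeded every vehicle library for Cd68, whose log2 fold change was 1.98 ± 0.48 (adjusted p = 0.0139 by edgeR). Without AP20187 library 3 the adjusted p of Cd68 was 0.0518.

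Of the 15 listed macrophage genes 6 rose and none fell, against 8.61% and 2.57% of all genes, and 14 had a positive fold change. Mertk, a receptor for dying cells, had -0.11. The median was 1.67 on the log2 scale, against -0.07 over all genes. The risers included Tyrobp, an adaptor of activating receptors, at 64.6 ± 31.7 CPM (SD, n = 4) against 14.5 ± 7.02 (SD, n = 5), and C1qb, a chain of complement C1q, at 95.5 ± 24.4 against 26.1 ± 19.4 CPM. The count of 6 depended on single libraries. It was 0 without AP20187 library 3, 1 without AP20187 library 1 or without vehicle library 1, 2 or 5, 3 without vehicle library 4 and 12 without vehicle library 3. It was also 11 with DESeq2, 12 with limma voom, 11 with only the naive libraries in the fit, 3 without TMM and 2 without a filter on low counts. The call of Tyrobp was lost without AP20187 library 1 or 3 and without vehicle library 1, 2 or 5 (adjusted p 0.0522 to 0.08), and that of C1qb without AP20187 library 1 or 3 or vehicle library 1, 2, 4 or 5 (0.0652 to 0.115).

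Genes of tissue-resident macrophages gave a mixed picture. Mrc1, the mannose receptor, was at 92.8 ± 20.2 CPM with AP20187 and 40.5 ± 25.1 CPM with vehicle. Its adjusted p in edgeR was 0.0891, which became 0.0269 without vehicle library 3. Of 8 other processing settings Mrc1 did not pass in 5, but it passed with DESeq2 and limma voom. Cd163, the haemoglobin scavenger receptor, was at 48.7 ± 10.6 against 29 ± 18.1 CPM (adjusted p = 0.274 by edgeR). Of 12 such genes 4 rose, against 8.61% of all genes, among them Folr2, Lyve1 and Il10. None fell in edgeR's test (1 did with DESeq2, limma voom or limma on FPKM). Of the 12, 10 had a positive fold change and 2 a negative one, the lowest -2.51 on the log2 scale. Il10, an anti-inflammatory cytokine, was at 0 to 0.467 CPM against 0 counts with vehicle, and its adjusted p of 0.0373 became 0.0508 to 0.0942 without AP20187 library 1 or 3 or without any 1 vehicle library (edgeR). Folr2, a folate receptor, was at 5.48, 11.3, 6.81 and 4.03 CPM with AP20187 and at 0.0401 to 1.25 CPM with vehicle, a log2 fold change of 3.67 ± 0.82 (adjusted p = 0.00863). In Folr2 the groups did not overlap.

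Among 12 genes of lysosome-rich phagocytes 3 rose (5 with limma voom), against 8.61% of all genes, with the largest factor for Gpnmb. This membrane glycoprotein of macrophages that have taken up lipid or debris was at 99.1, 80.3, 72.7 and 78.8 CPM with AP20187 and at 8.78, 9.03, 10.8, 7.57 and 5.81 CPM with vehicle. The difference was 9.86-fold, with a log2 fold change of 3.3 ± 0.35 and an adjusted p of 3.39e-05 (edgeR). Lpl, lipoprotein lipase, was at 57.6 ± 7.74 against 16.3 ± 5.69 CPM (adjusted p = 0.00519), and Lgals3, galectin-3, also rose. The other 9 of the 12 genes of the list did not pass, with log2 fold changes from -0.57 to 0.87.

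Of 10 monocyte genes 3 rose (5 with limma voom) and 1 fell, against 8.61% and 2.57% of all genes, 8 had a positive fold change and 6 did not pass. The gene that fell was Ccr2. This chemokine receptor of classical monocytes was at 8.01, 12.6, 6.91 and 3.4 CPM with AP20187 and at 28.1, 21, 50.7, 48.4 and 12.4 CPM with vehicle. The groups overlapped through AP20187 library 3 and vehicle library 5 and were otherwise separate. Ccr2 fell by 2.05 ± 0.6 on the log2 scale (adjusted p = 0.0342 by edgeR), but the adjusted p was 0.057 to 0.0881 without AP20187 library 1, 4 or 5 or without vehicle library 1, 3 or 4, and lay at the threshold (0.05) without vehicle library 2. By contrast Plac8, expressed in monocytes and granulocytes, was at 43.3 to 184 CPM against 6.2 to 13.9 CPM (log2 fold change 3.48 ± 0.62, adjusted p = 0.00229). Ly6c2, a surface protein of inflammatory monocytes that also occurs on other marrow cells, was at 139 ± 76.5 against 26.9 ± 11.8 CPM (adjusted p = 0.0175 by edgeR, and 0.0501 to 0.0648 without AP20187 library 1 or 3 or vehicle library 1 or 2). About 23.7% of the 31-base words of Ly6c2 transcripts occur in other genes, so reads can be shared with its relatives.

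**Figure D2:**
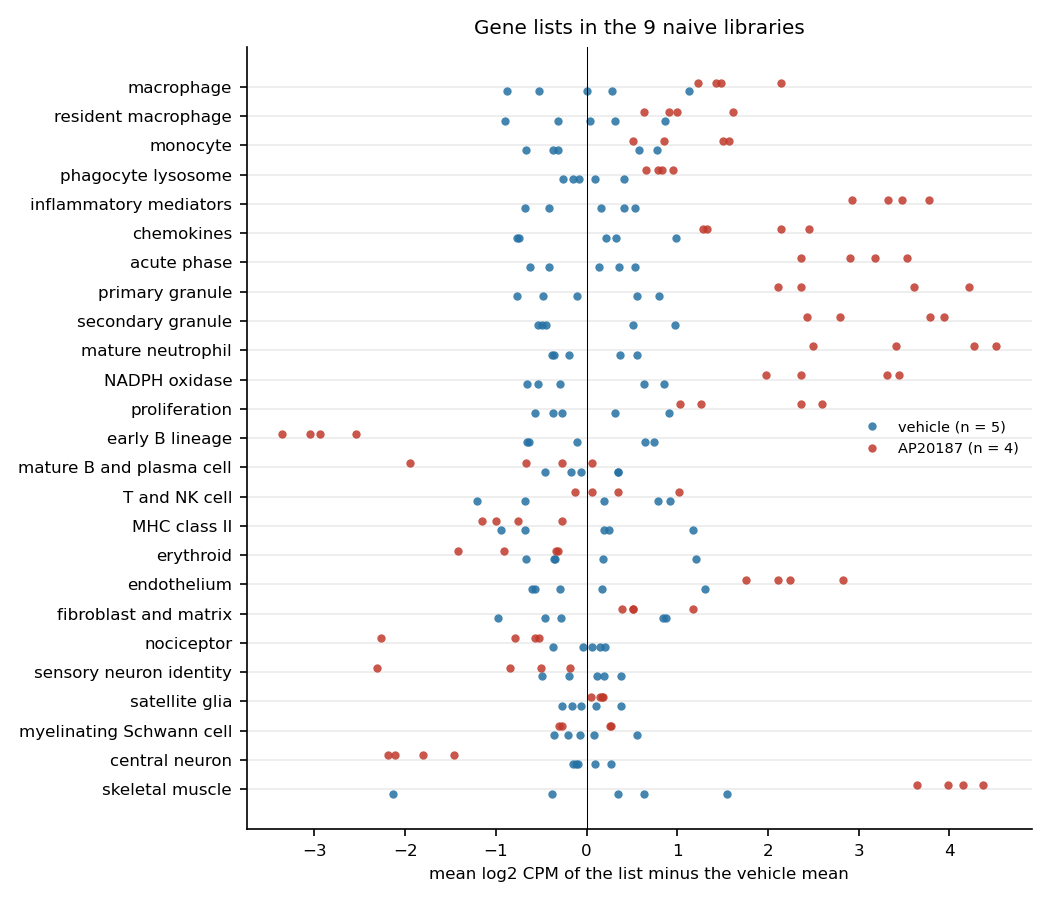
For 25 of the 52 gene lists, each point is 1 naive library, placed at the mean log2 CPM of the list's tested genes minus the mean of the 5 vehicle libraries. AP20187 libraries (red) lie above all vehicle libraries (blue) for the granule, neutrophil, inflammatory, acute phase and skeletal muscle lists. The same holds for the macrophage, phagocyte lysosome, chemokine, NADPH oxidase, proliferation and endothelium lists. AP20187 libraries lie below all vehicle libraries for the early B lineage, central neuron and nociceptor lists, and the groups overlap in the other drawn lists.

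Transcripts of neutrophil granules rose almost without exception. All 10 genes of primary granules rose, 11 of 12 of secondary granules and 13 of 15 of mature neutrophils, with none lower and medians of 3.13, 3.71 and 3.86 on the log2 scale; the background was 8.61% of all genes. Among primary granule proteins, myeloperoxidase (Mpo) was at 834, 573, 165 and 245 CPM with AP20187 and at 31, 25.8, 51, 64.1 and 19.1 CPM with vehicle (log2 fold change 3.57 ± 0.71, adjusted p = 0.00424 by edgeR). Neutrophil elastase (Elane) was at 47.1 to 242 against 6.23 to 20.4 CPM, and cathepsin G (Ctsg) at 31.2 to 234 against 2.8 to 7.25 CPM. In these 3 genes AP20187 libraries 1 and 3 were the higher pair and 4 and 5 the lower pair, and no library of one group overlapped the other group.

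The secondary granule genes Ngp (neutrophilic granule protein) and Ltf (lactotransferrin, which binds iron) were among the 10 passing genes with the highest CPM. Ngp was at 8154, 8962, 3948 and 2824 CPM with AP20187 and at 277, 315, 579, 784 and 291 CPM with vehicle, a 13.3-fold difference (log2 fold change 3.73 ± 0.65, adjusted p = 0.00204 by edgeR). Lcn2, lipocalin-2, a carrier that withholds bacterial siderophores, was at 2061 ± 1052 against 95.8 ± 43.3 CPM (21.5-fold, adjusted p = 0.00071). Camp, cathelicidin, was the weakest of the 11, at 83 to 335 against 30.1 to 83.2 CPM, so that AP20187 library 5 fell just below vehicle library 4; its adjusted p of 0.0376 became 0.0514 to 0.117 without AP20187 library 1 or 3 or vehicle library 1, 2, 3 or 5. In mature neutrophils S100a9, a subunit of calprotectin, was at 6121, 5594, 2513 and 1040 CPM with AP20187 and at 120 to 303 CPM with vehicle (log2 fold change 4.34 ± 0.71, adjusted p = 0.00126). Its partner S100a8 was at 1353 ± 881 against 56.7 ± 25.7 CPM.

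The largest fitted log2 fold change among named genes was that of a stefin, a small inhibitor of cysteine proteases found in neutrophils. Stfa2 (chromosome 16, 36224354 to 36228819, GRCm39) was at 5.84, 14.3, 4.91 and 0.761 CPM with AP20187 and had 0 counts in all 5 vehicle libraries. Its mean was at least 146-fold higher than the floor of the vehicle libraries (adjusted p = 0.00054 by edgeR). The related Stfa1 and Cstdc5 were at 0.891 to 9.11 and 0.761 to 18 CPM, with counts in a single vehicle library each. Of the 31-base words of Stfa2 transcripts 33.3% occur in another gene, and 43.8% for Stfa1, so the division of reads among the stefins is uncertain.

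Of 13 transcription factors of the granulocyte lineage 6 rose and none fell. The counts of this and the next lists are to be read against the 8.61% of all genes called higher. Spi1, which encodes PU.1, was at 90.3 ± 42.1 against 15.3 ± 7.13 CPM (adjusted p = 0.0113 by edgeR), Cebpe, the factor of the secondary granule programme, at 18.1 to 63.7 against 3.3 to 6.29 CPM (adjusted p = 0.0083), and Gfi1 at 10.6 ± 6.21 against 1.48 ± 1.05 CPM (adjusted p = 0.0123). Cebpa, active earlier in myeloid differentiation, was at 15 ± 2.52 against 10.9 ± 5.57 CPM (adjusted p = 0.534). All 6 listed subunits of the phagocyte NADPH oxidase rose, including Cybb, its catalytic subunit, at 513 ± 214 against 69.5 ± 39.2 CPM (adjusted p = 0.00319), and Ncf1 at 510 ± 232 against 57 ± 23.2 CPM. Among Fc gamma receptors, which bind antibody-coated targets, 5 of 6 rose, with Fcgr4 at 16 to 47.8 against 1.5 to 7.6 CPM (adjusted p = 0.00153). Of 14 genes of Toll-like receptor sensing 8 rose, with Tlr1 at 11.3 to 30.8 against 1.32 to 5.01 CPM (adjusted p = 0.00092; 20% of its 31-base words occur in other genes, first Tlr6). Eosinophil peroxidase (Epx) was at 24.2 to 69.3 against 5.6 to 9.6 CPM (adjusted p = 0.00751), and 6 of 12 eosinophil and mast cell genes rose, which became 1 or 2 of 12 without AP20187 library 1 or 3 or vehicle library 1, 2 or 5.

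**Figure D3:**
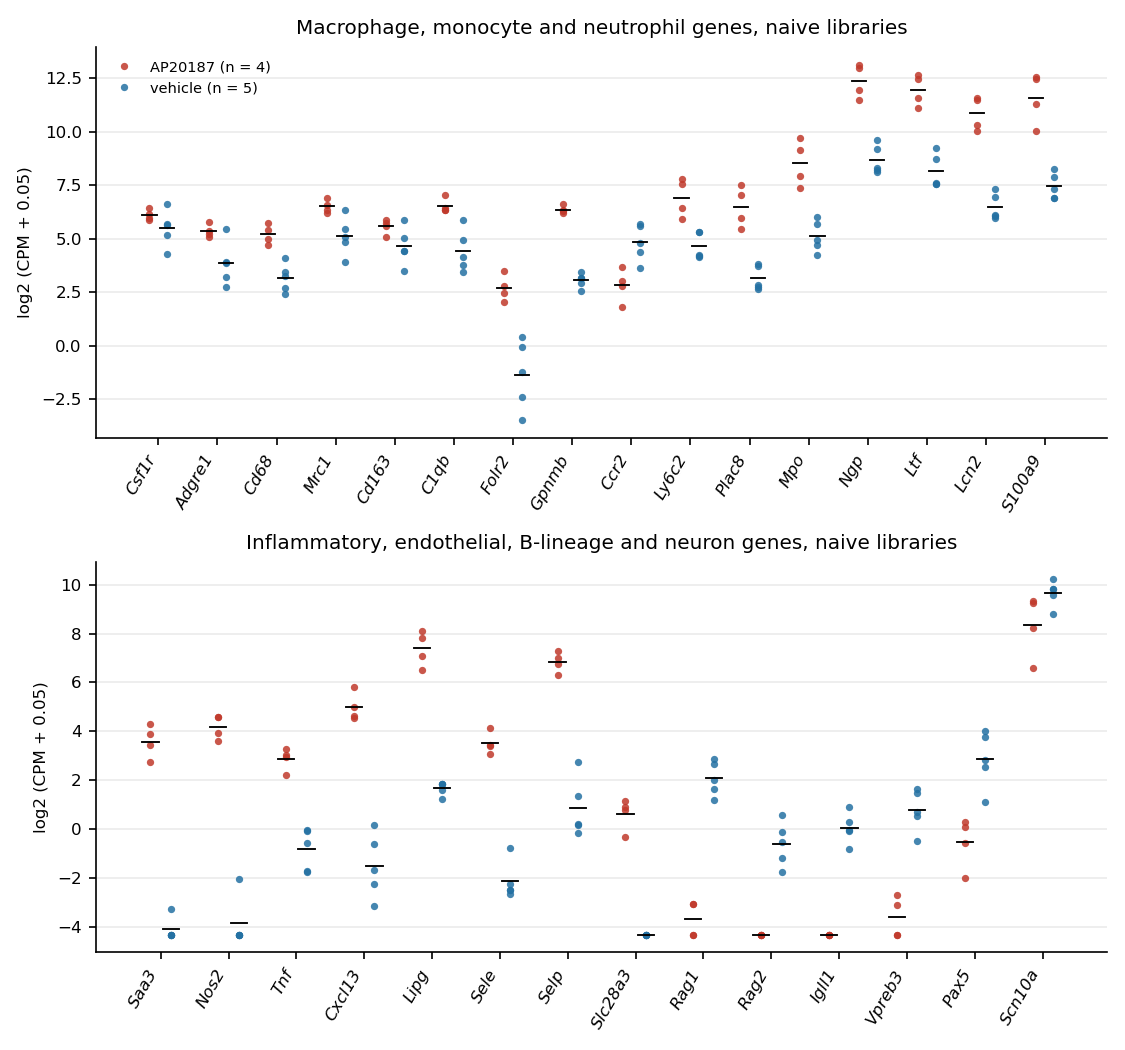
Each point is 1 naive library and each black bar the group mean of log2 (CPM + 0.05); red is AP20187 (n = 4) and blue vehicle (n = 5). Csf1r overlaps between the groups, the granule genes from Mpo to S100a9 lie apart by about the log2 fold changes given in the text, and Slc28a3 (vehicle) and Rag2 and Igll1 (AP20187) sit at 0 counts in every library of 1 group.

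The acute phase genes, which the liver and inflamed tissues express, rose in 7 of 12 cases, against 8.61% of all genes. None fell, and the median log2 fold change was 2.27. Of the 12 genes 11 had a positive fold change. Fgb, with 0 counts in every AP20187 library, had a negative one and did not pass. Saa3, serum amyloid A3 (chromosome 7, 46361422 to 46365124, GRCm39), was at 14.6, 19.5, 10.7 and 6.54 CPM with AP20187, at 0.0533 CPM in vehicle library 3 and at 0 in the other vehicle libraries (log2 fold change 9.89 ± 1.2, adjusted p = 9.9e-05 by edgeR; how large it is follows from the prior count). Its relative Saa1 was at 3.45 to 10.9 against 0 to 0.519 CPM, with 46.8% of its 31-base words shared with Saa2 and Saa3. Hp, haptoglobin, which binds free haemoglobin, was at 464 ± 216 against 42.7 ± 18.7 CPM (adjusted p = 0.00272), and Itih4 at 2.18 to 8.02 against 0 to 0.133 CPM (adjusted p = 0.00297). The groups did not overlap in Saa3, Saa1, Hp or Itih4.

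Granule and acute phase genes are classical targets of C/EBP transcription factors, so the 250 bases before the start of 3 of them are shown, with a C/EBP-type motif, TTNNGCAA on either strand, in capitals. Sequences are from RefSeq (GRCm38.p6, not the build of the counts) and run 5′ to 3′ on the gene's strand, ending at the base before the start.
Saa3, chr7:46715677-46715926, minus strand: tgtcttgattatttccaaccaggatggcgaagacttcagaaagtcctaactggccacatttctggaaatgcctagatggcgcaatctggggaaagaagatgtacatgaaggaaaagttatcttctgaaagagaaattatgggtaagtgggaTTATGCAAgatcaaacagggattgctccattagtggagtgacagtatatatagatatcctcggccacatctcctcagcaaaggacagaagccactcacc
Lcn2, chr2:32387740-32387989, minus strand: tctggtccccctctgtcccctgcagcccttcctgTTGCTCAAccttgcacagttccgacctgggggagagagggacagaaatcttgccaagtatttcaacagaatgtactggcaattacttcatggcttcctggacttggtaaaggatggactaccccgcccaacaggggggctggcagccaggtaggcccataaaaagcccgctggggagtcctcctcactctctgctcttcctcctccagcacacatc
Ngp, chr9:110419558-110419807, plus strand: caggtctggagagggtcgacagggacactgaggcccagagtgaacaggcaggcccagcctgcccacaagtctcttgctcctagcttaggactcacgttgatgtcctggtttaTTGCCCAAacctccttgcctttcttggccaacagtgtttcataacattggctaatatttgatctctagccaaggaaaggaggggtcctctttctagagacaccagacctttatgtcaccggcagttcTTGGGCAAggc
The match begins 99 bases before the start in Saa3 and 216 in Lcn2, and Ngp has 2 matches, at 138 and 11 bases. Of the acute phase windows 6 of 9 held the motif, of the granule windows 6 of 20, and of all 14387 windows of tested genes 8.05%. Saa1 and Saa2 are near copies and are not independent. Fgb, whose fold change was negative, was among the 6 acute phase windows with the motif. A match of letters is a description and says nothing about binding.

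Inflammatory mediators rose in 10 of 14 cases, against 8.61% of all genes, with none lower and a median of 2.79 on the log2 scale. Nos2 (chromosome 11, 78811613 to 78851080, GRCm39), the inducible nitric oxide synthase, was at 24.1, 23.6, 15.1 and 12.1 CPM with AP20187, at 0.194 CPM in vehicle library 4 and at 0 in the other vehicle libraries (adjusted p = 9.05e-05 by edgeR). Tnf, a central inflammatory cytokine, was at 4.59 to 9.68 against 0.249 to 0.912 CPM (12.8-fold, adjusted p = 0.00091), and Acod1, the enzyme that makes itaconate in activated macrophages, at 2.45 to 10.6 against 0 to 0.28 CPM. Il1b, Il6, Ptges and Ccl4 of this list did not pass. Of 16 pain mediators and receptors 2 rose and 1 fell (Ccr2, given above), against 8.61% and 2.57% of all genes, 11 had a negative fold change, and the median was -0.35. The risers were the receptors of interleukin-1 and TNF. Il1r1 was at 31, 57.5, 57.3 and 46.9 CPM against 10.2 to 20.6 CPM (log2 fold change 1.75 ± 0.22, adjusted p = 0.00012), and Tnfrsf1a at 95.4 ± 22.7 against 32.8 ± 8.05 CPM (adjusted p = 0.00718).

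Of 19 chemokine genes 8 rose, against 8.61% of all genes, and none fell. Cxcl13, which attracts B cells, was at 24.5, 56.8, 23.3 and 31.8 CPM with AP20187 and at 0.598, 0.0622, 1.05, 0.258 and 0.16 CPM with vehicle. This was an 80-fold difference between mean CPM (log2 fold change 6.3 ± 0.67, adjusted p = 3.39e-05 by edgeR). Cxcl1, a neutrophil attractant, was at 2.4 to 14.2 against 0.0668 to 0.436 CPM (adjusted p = 0.00129), and Ccl8, which draws in monocytes, was at 27.6 to 105 against 0.358 to 4.87 CPM (adjusted p = 0.00176). The count of 8 was 5 without AP20187 library 3, the library with the highest value of all 3 genes.

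In the complement cascade, the central component C3 was at 674 ± 232 against 67.3 ± 36.9 CPM (adjusted p = 0.00091), and 9 of 16 complement genes rose, against 8.61% of all genes, while the receptor Cr2, found on B cells, and the regulator Cd55 fell. The count of 2 lower genes was 0 without AP20187 library 1 or 3 or vehicle library 5, and 1 without AP20187 library 4 or vehicle library 1, 2, 3 or 4.

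The gene with the smallest adjusted p among the lists was Lipg, an endothelial lipase that trims high-density lipoprotein and is also made by some leukocytes. It was at 278, 229, 137 and 90.6 CPM with AP20187 and at 3.51, 3.53, 3.51, 2.94 and 2.29 CPM with vehicle, a 58.2-fold difference (log2 fold change 5.86 ± 0.41, adjusted p = 2.01e-07 by edgeR). The leukocyte-tethering selectins of activated endothelium moved likewise. Sele (E-selectin) was at 8.44 to 17.5 against 0.107 to 0.532 CPM (adjusted p = 0.00014) and Selp (P-selectin, also in platelets) at 77.9, 156, 108 and 129 CPM against 0.842 to 6.55 CPM (adjusted p = 2.92e-05). The general endothelial marker Pecam1 was at 134 ± 44.9 against 50.1 ± 49 CPM, with an adjusted p of 0.0507 that became 0.00069 without vehicle library 4, the vehicle library with the most Pecam1, Sele and Selp. Of 16 endothelial genes 9 rose, against 8.61% of all genes. The count was 5 without AP20187 library 3 and 15 without vehicle library 4 or with limma voom.

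Of 12 ligands and receptors of the colony-stimulating factors 3 rose, against 8.61% of all genes, and none fell in edgeR's test; 5 rose with only the naive libraries in the fit, and 2 passed as lower with limma on FPKM. Csf1, the ligand of Csf1r, was at 38.2, 52.3, 32.8 and 31.7 CPM with AP20187 and at 17.4, 20.2, 19.9, 23.2 and 16.2 CPM with vehicle (log2 fold change 1 ± 0.19, adjusted p = 0.00313 by edgeR), so that all AP20187 libraries were higher. Il34, the other ligand, was at 21.4 ± 3.37 against 18.8 ± 3.07 CPM (adjusted p = 0.557). The common beta chains of the GM-CSF receptor family, Csf2rb and Csf2rb2, were at 111 to 305 against 7.15 to 24.7 CPM (adjusted p = 0.00031) and at 57.9 to 115 against 2.36 to 9.97 CPM (adjusted p = 3.62e-05). The 2 genes share up to 30.1% of their 31-base words, so their split is uncertain. The other 9 of the 12 tested genes of the list did not pass.

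In the Fas pathway, the route that the transgene uses, 8 of 15 genes rose, against 8.61% of all genes, and none fell. Casp8, the initiator caspase, was at 38.6, 45.9, 22.7 and 30.6 CPM with AP20187 and at 6.58, 5.37, 12.11, 12.49 and 4.41 CPM with vehicle (log2 fold change 2.07 ± 0.46, adjusted p = 0.0082 by edgeR), and Bak1, a pore former of mitochondrial cell death, at 26 to 74.6 against 12 to 15.8 CPM (adjusted p = 0.00144). Fas itself was at 8.16 ± 1.78 against 3.25 ± 1.19 CPM (adjusted p = 0.0266, and 0.0505 to 0.0831 without AP20187 library 1 or 3 or vehicle library 1, 2 or 5), and its ligand Fasl at 0.388 ± 0.51 against 0.303 ± 0.325 CPM (adjusted p = 0.895). The count of 8 became 4 without AP20187 library 1 or 3 or vehicle library 1 or 2, and 5 without vehicle library 5. Whether reads of the transgene's Fas part were counted to Fas was not analysed here.

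Of 14 early B-lineage genes tested 9 fell and none rose, against 2.57% lower among all genes, with a median log2 fold change of -3.25. Rag1 (chromosome 2, 101468627 to 101479846, GRCm39), a subunit of the recombinase that assembles antigen receptors, was at 0, 0.0676, 0.0672 and 0 CPM with AP20187 and at 3.92, 3.09, 7.23, 6.26 and 2.23 CPM with vehicle (fell by 7 ± 1.02 on the log2 scale, adjusted p = 0.00054 by edgeR). The AP20187 mean of Rag1 lay under the floor of 0.0504 CPM, so how large this fall is depends in part on the prior count. Rag2, the partner of Rag1, had no counts in any AP20187 library and was at 0.249 to 1.44 CPM with vehicle, at least 14.2-fold lower against the floor (adjusted p = 0.0138 by edgeR). Both genes overlap Iftap in the files' coordinates. The surrogate light chain gene Igll1 also had 0 counts with AP20187 against 0.513 to 1.79 CPM with vehicle, at least 20.9-fold lower (adjusted p = 0.017, and 0.0518 without AP20187 library 3), and Vpreb3, of the same pre-B cell stage, was at 0 to 0.101 against 0.669 to 3.05 CPM (adjusted p = 0.00731).

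The promoters of Rag1 and Igll1 are shown with the E-box CAGGTG in either orientation in capitals, the motif that E2A-type factors of B-cell precursors bind, from the same source as above.
Rag1, chr2:101649533-101649782, minus strand: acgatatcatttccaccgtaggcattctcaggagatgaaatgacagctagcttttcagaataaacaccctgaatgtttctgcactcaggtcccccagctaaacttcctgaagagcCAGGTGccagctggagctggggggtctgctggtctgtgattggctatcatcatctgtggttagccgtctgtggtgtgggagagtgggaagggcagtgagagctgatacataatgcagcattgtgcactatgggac
Igll1, chr16:16863986-16864235, minus strand: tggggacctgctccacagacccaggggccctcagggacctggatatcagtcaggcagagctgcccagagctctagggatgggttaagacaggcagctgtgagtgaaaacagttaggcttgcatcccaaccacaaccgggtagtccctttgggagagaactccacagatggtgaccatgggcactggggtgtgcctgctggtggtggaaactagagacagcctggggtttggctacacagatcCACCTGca
The match begins 135 bases before the start in Rag1 and 8 in Igll1. Of 11 early B-lineage windows 5 held CAGGTG, against 16.1% of all 14387 windows. Lists with genes that rose held it too, in 4 of 12 skeletal muscle, 2 of 9 acute phase and 4 of 20 granule windows. It was in 0 of 15 chemokine windows. The palindrome TCCCNNGGGA of EBF-type factors was in 0 of the 11 and in 0.959% of all windows.

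Of 15 genes of mature B and plasma cells 4 fell (2 without AP20187 library 1 or vehicle library 5, and 1 without AP20187 library 3), 1 rose (3 with DESeq2 and 2 with only the naive libraries in the fit) and 10 did not pass, with a median of -0.40. Over all genes 2.57% were called lower and 8.61% higher. The early-list gene Pax5, the factor that commits cells to the B lineage, was at 0.623, 1.01, 0.202 and 1.17 CPM with AP20187 and at 2.08 to 16.2 CPM with vehicle (adjusted p = 0.00941 by edgeR), and the mature-list gene Ms4a1, which encodes CD20, at 0.235 to 1.45 against 4.5 to 12 CPM (adjusted p = 0.0117). Blk, a B-cell kinase on the early list, was at 0.127 ± 0.231 against 2.5 ± 1.14 CPM and Fcer2a, the low-affinity IgE receptor, was at 0.109 ± 0.128 against 1.82 ± 0.496 CPM. No AP20187 library reached the lowest vehicle library in these 4 genes. The calls of the last 2 depended on single libraries: the adjusted p was 0.0817, 0.0631 and 0.0511 for Blk without AP20187 libraries 1 and 4 and vehicle library 1, and 0.0696 for Fcer2a without AP20187 library 3. Ighm, the heavy chain of IgM, was at 78.4 ± 68.9 against 76.7 ± 23.6 CPM (adjusted p = 0.98), and its log2 fold change ran from -0.73 to 0.34 when 1 library was left out. Xbp1, a factor of secretory cells including plasma cells, rose from 76.8 ± 5.21 to 210 ± 37 CPM (adjusted p = 0.00041).

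Among 14 T and NK cell genes 1 rose, a share near the 8.61% of all genes called higher (Nkg7, which is also on the primary granule list, and was lost without AP20187 library 1 or 3 or vehicle library 1, 2 or 5) and none fell, and Cd3e, a subunit of the T-cell receptor complex, was at 0.442 ± 0.404 against 0.826 ± 0.309 CPM (adjusted p = 0.276 by edgeR). None of 10 MHC class II genes passed, although 9 had a negative fold change, the median was -1.13, and 2 passed as lower with DESeq2 and 1 with only the naive libraries in the fit. H2-Aa was at 33.5 to 88.1 against 44.1 to 309 CPM (adjusted p = 0.202). None of 13 erythroid genes passed either (1 as lower without AP20187 library 5 and with limma on FPKM). All 13 had a negative fold change, with a median of -0.88. The beta-globin gene Hbb-bs was at 893 ± 226 against 2105 ± 1419 CPM (adjusted p = 0.211 by edgeR). Of its 31-base words 54.4% are shared with Hbb-bt. Cell division genes rose in 12 of 16 cases, again against 8.61%. The cyclin Ccnb1 was at 19.6 to 69 against 2.88 to 11.2 CPM (adjusted p = 0.00655; 27.7% of its 31-base words occur in other genes) and the division marker Mki67 at 183 to 541 against 42.5 to 202 CPM (adjusted p = 0.0361, and 0.0564 to 0.118 without AP20187 library 1 or 3 or any vehicle library but library 4). The count of 12 was 5 or 6 without AP20187 library 1 or 3 or vehicle library 1, 2 or 5.

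Of the 10 genes with the largest fitted increase 7 had 0 counts in every vehicle library, and the size of such a fitted change depends on the prior count. Slc28a3, a transporter that concentrates nucleosides in cells, was at 2.14, 1.84, 0.74 and 1.65 CPM with AP20187 and had 0 counts in every vehicle library, at least 36.1-fold higher (adjusted p = 8.08e-05 by edgeR); the related Slc28a2 was at 20.7 to 64.2 against 2.73 to 9.08 CPM, with 46.3% of its 31-base words in another gene. Ifi202b, an interferon-inducible DNA-binding protein, was at 3.48, 0.203, 1.02 and 1.59 CPM against 0 counts with vehicle (at least 35.6-fold higher, adjusted p = 0.00365). In DMM mice Ifi202b was at 0.0121 CPM with AP20187 and 0.0123 CPM with vehicle, both under the floor. Marco, a scavenger receptor of macrophages, was at 0.353 to 3.15 CPM against 0 counts with vehicle (at least 30.9-fold higher, adjusted p = 0.00896). The prolactin-family genes Prl2c2 and Prl2c3 were at 1.05 to 2.87 and at 0.373 to 1.43 CPM against 0 counts with vehicle, with adjusted p of 0.00641 and 0.00434; they share 89.8% and 67% of their 31-base words with relatives and count as 1 signal. Ostn, which encodes the muscle and bone peptide osteocrin, was at 0.639 to 1.61 CPM against 0 counts (adjusted p = 0.0259, and 0.0532 to 0.0655 without AP20187 library 1 or 3 or vehicle library 1 or 2).

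Among the passing genes with the highest CPM, Apod, a lipid carrier of glia and fibroblasts, was at 9106, 17510, 8755 and 9269 CPM with AP20187 and at 2610, 1575, 5435, 1861 and 1179 CPM with vehicle. All AP20187 libraries were higher, and the log2 fold change was 2.14 ± 0.57 (adjusted p = 0.0217 by edgeR; 0.0514 to 0.0837 without AP20187 library 3 or vehicle library 1, 2 or 5). The ferritin heavy chain Fth1, which stores iron, was at 3996 ± 1103 against 1297 ± 220 CPM (adjusted p = 0.00168). The mitochondrial mt-Co3, mt-Co2 and mt-Nd6 rose by 1, 0.9 and 0.83 on the log2 scale, the translation factor Eef1a1 by 0.89 and the actin-binding Tmsb4x by 1.44, and each of these 5 calls was lost without AP20187 library 3 (adjusted p 0.0583 to 0.134). Of the 31-base words of mt-Co2, mt-Co3 and Eef1a1 transcripts 100%, 99.9% and 49.8% occur in other annotated genes, so their counts are uncertain. The calls of mt-Co2, mt-Nd6, Eef1a1 and Tmsb4x were also lost without AP20187 library 1 or vehicle library 1 or 2, and those of the last 3 without vehicle library 5 (0.0564 to 0.0963). Metallothionein Mt2, which binds zinc and copper, was at 65.7, 74, 71 and 20.8 CPM against 12.6 to 16.8 CPM (adjusted p = 0.00088), and stromelysin Mmp3, a matrix protease, at 2.99 to 14.3 against 0 to 0.339 CPM (adjusted p = 0.00873).

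Of 15 nociceptor genes 14 had a negative and 1 a positive fold change with AP20187, and the median was -0.92 on the log2 scale. By edgeR 1 of the 15 fell, against 2.57% of all genes, and none rose; the count was 3 with DESeq2, 6 with limma voom, 6 with limma on FPKM and 2 with only the naive libraries in the fit. Scn10a was at 299.7, 96.9, 651 and 611 CPM with AP20187 and at 762, 1191, 451, 904 and 904 CPM with vehicle (adjusted p = 0.309 by edgeR). The groups overlapped, with AP20187 library 3 lowest. Trpv1, the capsaicin and heat receptor, was at 49.7, 10.7, 53.9 and 47 CPM against 74.9 to 131 CPM, apart between the groups but with an adjusted p of 0.0774. The gene that fell was Sst, the peptide of an itch-related neuron class, at 1.2 to 3.82 against 5.03 to 7.79 CPM (adjusted p = 0.0131). Of 13 genes of large-diameter neurons 11 had a negative fold change and the median was -0.51, but none fell in edgeR's test (1 did with limma on FPKM) and 1 rose, Pvalb, at 164 to 284 against 26.8 to 87.1 CPM (log2 fold change 2.10, adjusted p = 0.0027 by edgeR). Pvalb is also expressed in fast muscle. Ntrk3, the receptor of proprioceptors, was at 130 ± 77.5 against 185 ± 53.7 CPM (adjusted p = 0.503). Trpv1 passed under 5 of the other processing settings, each with all or only the naive libraries.

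Of 16 markers of nerve injury 4 rose, against 8.61% of all genes, and none fell in edgeR's test; 2 passed as lower with DESeq2, limma voom or limma on FPKM and 1 with only the naive libraries in the fit. Atf3, the transcription factor switched on by axon damage, was at 19.3, 12.8, 14.9 and 19.6 CPM with AP20187 and at 3.55 to 9.76 CPM with vehicle (log2 fold change 1.1 ± 0.25, adjusted p = 0.00984 by edgeR). It rose with Csf1, Sema6a and Nts, the last of which (adjusted p = 0.0455) was lost without any 1 library but AP20187 library 5 or vehicle library 3 (0.0634 to 0.18), while 12 of the 16 genes did not pass, and the median of the list was -0.36. Of 12 satellite glia genes 1 fell, against 2.57% of all genes, the endothelin receptor Ednrb, at 30.4 to 45.9 against 40.1 to 82.6 CPM (adjusted p = 0.0173, and 0.0509 and 0.0744 without AP20187 libraries 1 and 3). Fabp7, a fatty acid carrier of these cells, was at 221 ± 75.6 against 153 ± 58.1 CPM (adjusted p = 0.339). None of 14 myelinating Schwann cell genes passed. Of 16 genes of cholesterol synthesis, which myelinating cells use heavily, all had a negative fold change and 2 passed, including lanosterol synthase Lss at 26.2 ± 8 against 50.7 ± 3.54 CPM (adjusted p = 0.0288); the count of 2 was 0 without AP20187 library 1 or 3 or vehicle library 1, 2 or 5, and 1 without AP20187 library 4 or vehicle library 3. It was 5 with DESeq2, 9 with limma voom, 11 with limma on FPKM, 4 without TMM and 3 with only the naive libraries in the fit.

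Markers of tissues outside the ganglion also differed between the groups. Of 15 skeletal muscle genes tested 9 rose, against 8.61% of all genes, and none fell, with a median of 3.67 on the log2 scale, and the summed level of the list was 1908 to 2973 CPM with AP20187 and 18.6 to 512 CPM with vehicle. Slow-muscle myosin Myh7 was at 16.1, 13.6, 9.46 and 12.7 CPM with AP20187 and at 0.201 to 0.96 CPM with vehicle (adjusted p = 1.34e-05 by edgeR; 22.9% of its 31-base words occur in other genes, first Myh6), and slow troponin Tnnt1 at 6.76 to 15.3 against 0.428 to 1.39 CPM (adjusted p = 0.00022). The actin Acta1 was at 443, 308, 249.9 and 342 CPM in the AP20187 libraries and at 2.61 to 99.5 CPM with vehicle, with an adjusted p of 0.0704. Creatine kinase Ckm was at 271 ± 51.1 against 34.5 ± 38 CPM (adjusted p = 0.0925). The count of 9 was 4 without AP20187 library 1 or 3 or vehicle library 1 or 2, 5 without vehicle library 4 or 5, 14 with limma voom, and 15 with limma on FPKM or with only the naive libraries in the fit.

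Of 16 genes of central neurons, a cell type outside the ganglion, 8 fell, against 2.57% of all genes, and none rose in edgeR's test, with a median of -1.89, and the summed level was 99.7 to 175 CPM with AP20187 and 140 to 196 CPM with vehicle. Slc6a5, the glycine transporter of spinal and brainstem neurons, and Gabra6, a receptor subunit of cerebellar granule cells, had 0 counts in all 4 AP20187 libraries and were at 0.358 to 1.01 and 0.613 to 1.44 CPM with vehicle. These were at least 16-fold and 19.3-fold lower (adjusted p = 1.05e-05 and 5.64e-05 by edgeR). The enzymes that make the transmitter GABA were at 0.623 to 2.45 against 4.82 to 8.23 CPM (Gad1) and at 0.519 to 1.05 against 2.71 to 3.52 CPM (Gad2). Among 14 genes of central glia 4 fell, including the glutamate transporter Slc1a2 at 7.13 to 14.3 against 20.4 to 22.4 CPM (adjusted p = 0.00176); the count was 2 without AP20187 library 3 or 4 or vehicle library 1, 3, 4 or 5 or without a filter on low counts, and 1 with only the naive libraries in the fit. Bone marrow genes are those of the granule and early B-lineage lists, whose summed levels were 518 to 2260 against 88.1 to 235 CPM for primary granules and 84.5 to 162 against 190 to 243 CPM for early B cells. The part of muscle, central nervous tissue or marrow in the other differences was not tested.

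The remaining lists differed in their share of calls, to be read against the 8.61% of all genes that were called higher. None of 15 fibroblast and matrix, 11 cartilage and bone, 11 megakaryocyte and 12 sensory neuron identity genes passed, and at most 3 of any of these did when 1 library was left out. The 11 megakaryocyte genes all had a positive fold change, with a median of 1.42, and 8 passed with limma voom, 4 with only the naive libraries in the fit and 2 with DESeq2. All 12 sensory neuron identity genes had a negative fold change, with a median of -0.83. With limma voom 3 fibroblast and matrix genes passed as higher and 3 sensory neuron identity genes as lower. Of 13 members of the Ifi200 family 5 rose (3 without AP20187 library 1 or 3, vehicle library 1, 2 or 5, TMM or a filter on low counts), and of 16 interferon-response genes 3 (1 without AP20187 library 3, 5 with limma voom). Of 15 matrix protease genes 7 rose (4 without AP20187 library 3 or vehicle library 1 or 2, 11 with limma voom) and of 14 iron and heme genes 6 (3 without AP20187 library 1 or 3 or vehicle library 1 or 2). Of 13 mitochondrial genes 4 rose (1 without AP20187 library 3 or with limma on FPKM, 2 without AP20187 library 1 or vehicle library 1 or 2, and 7 with DESeq2). Of 14 glucocorticoid-responsive genes 4 rose (2 without AP20187 library 3 or vehicle library 2) and of 13 genes of nucleoside and arginine metabolism 4.

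To ask whether naive and DMM mice responded differently, the AP20187 effect in naive mice was subtracted from that in DMM mice, which used separate vehicle groups. In 26 genes (0.114% of those tested) the difference passed an adjusted p of 0.05 in edgeR, 15 with a more positive change in naive mice and 11 with a more positive change in DMM mice, and 1748 genes had an unadjusted p under 0.05. None of these 26 was on a granule, neutrophil, inflammatory, acute phase or B-lineage list. In DMM mice Ngp was at 7020 ± 1543 CPM (SD, n = 5) with AP20187 and 881 ± 943 CPM (SD, n = 5) with vehicle. In the same mice Lipg was at 340.5 ± 134 CPM (SD, n = 5) with AP20187 and 2.38 ± 0.975 CPM (SD, n = 5) with vehicle, and Rag1 was at 0.0583 ± 0.0735 CPM (SD, n = 5) with AP20187 and 6.59 ± 4.42 CPM (SD, n = 5) with vehicle. The difference between naive and DMM mice did not pass for these 3 genes (adjusted p = 0.923, 0.499 and 0.988 by edgeR).

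**Figure D4:**
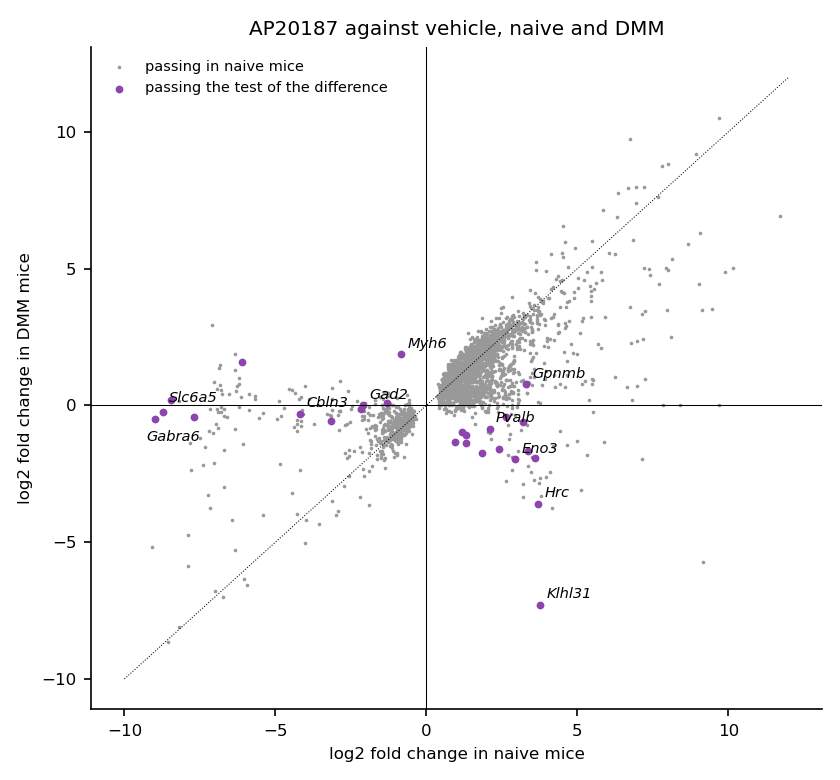
Each point is 1 gene that passed in naive mice (grey) or passed the test of the difference between naive and DMM mice (purple, 26 genes), with the log2 fold change of AP20187 against vehicle in naive mice on the horizontal and in DMM mice on the vertical axis. The dotted line marks equal change. Gabra6 and Slc6a5 lie at -8.98 and -8.72 in naive mice and near 0 in DMM mice, and Klhl31 lies at 3.78 and -7.28. The sizes -8.98, -8.72 and -7.28 follow from the prior count, since the AP20187 mean was under the floor of detection.

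Of the 15 genes with a more positive change in naive mice the lists of skeletal muscle, large-diameter neurons and the phagocyte lysosome held 1 each. Klhl31, a sarcomere-associated protein, was at 8.05 to 13.7 CPM with AP20187 and 0.267 to 1.85 CPM with vehicle in naive mice. In DMM mice it was at 0 to 0.0611 and 0.0605 to 8.76 CPM (difference of log2 fold changes, DMM minus naive, -11.06, adjusted p = 0.011 by edgeR). The DMM AP20187 mean, 0.0122 CPM, was under the floor of 0.0461 CPM, so the size of this difference follows from the prior count. Of the DMM vehicle libraries 1 was at 8.76 CPM and the others at 1.89 CPM or less. The call of Klhl31 in naive mice alone (adjusted p = 0.0282 by edgeR) was lost without AP20187 library 1 or 3 or vehicle library 1, 2 or 5 (0.0608 to 0.0709). The calcium-binding Hrc, the myosin light chain Myl3 and the glycolytic enzymes Pgam2 and Eno3 gave -7.28, -5.55, -5.01 and -4.91. In all 5 genes the naive AP20187 libraries stood above the other groups, except that 1 DMM vehicle library reached the range of the naive AP20187 libraries in Klhl31, Hrc and Eno3. Pvalb, the calcium buffer of fast muscle and of proprioceptive neurons, was at 164 to 284 against 26.8 to 87.1 CPM in naive mice and 38.9 to 63.7 against 38.5 to 174 CPM in DMM mice (difference -2.94, adjusted p = 0.0348). Gpnmb, of the phagocyte lysosome list, was at 15.1 to 28.1 against 6.64 to 25 CPM in DMM mice, below the 72.7 to 99.1 CPM of naive mice with AP20187 (difference -2.54, adjusted p = 0.0351).

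The 11 genes with a more positive change in DMM mice all had their lowest mean in naive mice with AP20187, and 4 of them are on the central neuron list (Gad1, Gad2, Gabra6 and Slc6a5). Cbln3, a synapse organiser of cerebellar granule cells, was at 0.138, 0.0676, 0.185 and 0.0648 CPM with AP20187 and at 1.51 to 2.9 CPM with vehicle in naive mice, and at 1.29 to 2.9 and 1.55 to 2.92 CPM in DMM mice (difference 3.89, adjusted p = 0.00175 by edgeR). The NMDA receptor subunit Grin2c was at 0.101 to 0.294 against 1.09 to 2.48 CPM in naive mice and at 0.883 to 1.31 against 1.22 to 1.94 CPM in DMM mice (difference 2.6, adjusted p = 0.0351). Gad1 and Gad2 gave differences of 2.02 and 2.1, and Slc6a5 and Gabra6, at 0 in naive AP20187 libraries, 8.47 and 8.5, sizes that follow from the prior count. Myh6, a heart myosin, differed from the rest: it was at 3.05 to 4.24 CPM in DMM mice with AP20187 and at 0.567 to 1.7 CPM in the other 3 groups (difference 2.71, adjusted p = 0.00274); 29.2% of its 31-base words occur in other genes, first Myh7. The count of 26 was 57 without naive AP20187 library 5, 16 and 17 without naive AP20187 libraries 1 and 3, and 13 or 14 without naive vehicle library 1, 2, 4 or 5. It was 12 to 16 without any 1 DMM library with AP20187 and 13 without DMM vehicle library 63.

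**Figure D5:**
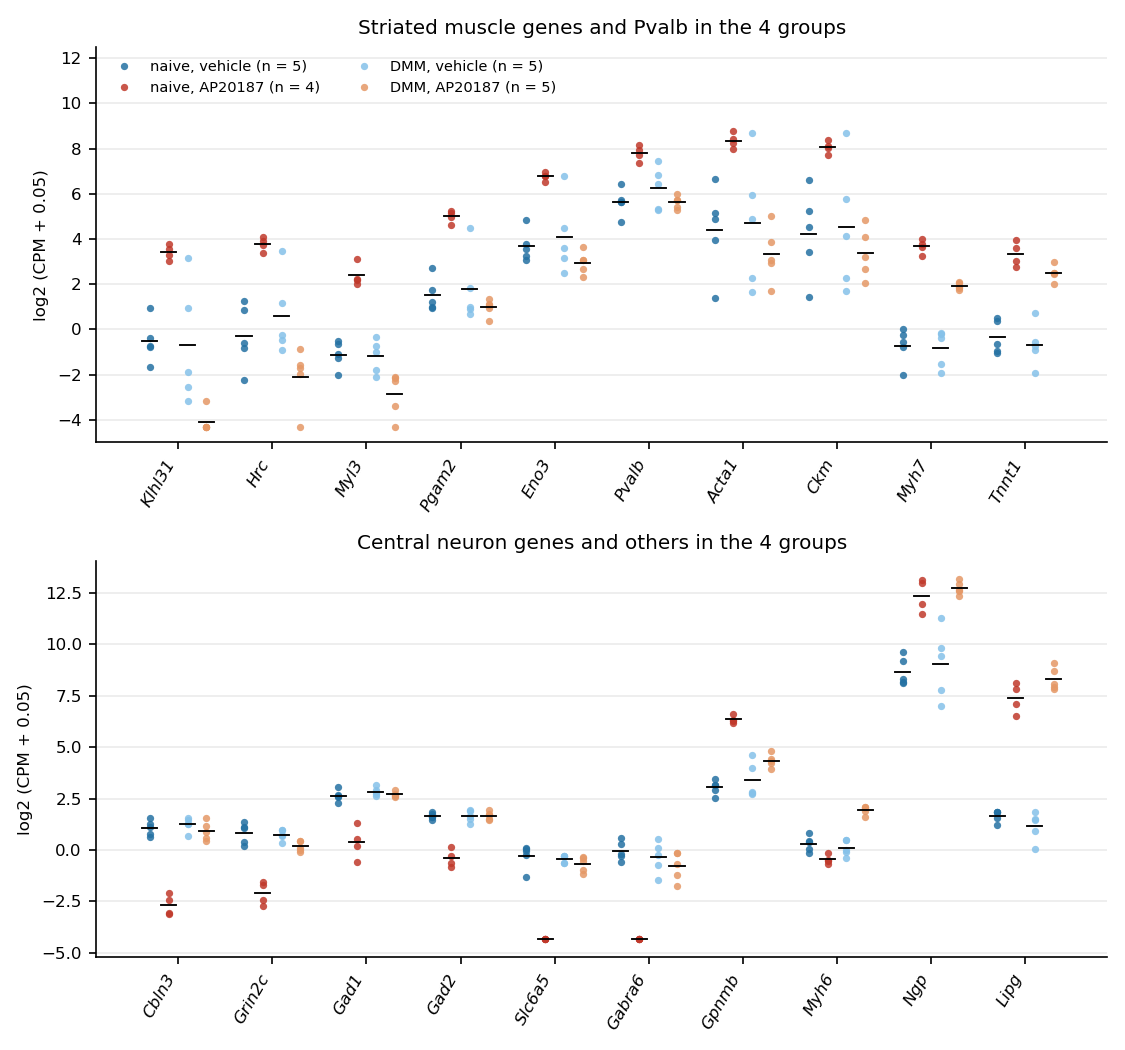
Each point is 1 library and each black bar the mean of log2 (CPM + 0.05) in 4 groups: naive vehicle (dark blue), naive AP20187 (red), DMM vehicle (light blue) and DMM AP20187 (orange). The central neuron genes Cbln3 to Gabra6 are lowest in naive AP20187 libraries and higher in the other 3 groups, while Ngp and Lipg are high in both AP20187 groups.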

How the data were processed

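Poly(A) RNA of pooled L3 to L5 ganglia was sequenced in 19 libraries, 9 of them naive. The deposited files hold raw counts for each gene, as whole numbers without scaling, and FPKM values that the authors made from the same libraries. HISAT2, StringTie, cutadapt and the build GRCm39 are named in the submitters' processing notes, without roles. Counts were tested with edgeR 4.0.16 (R 4.3.3, TMM factors, filterByExpr with a minimum count of 10, quasi-likelihood F test, 1 model of all 4 groups with 15 residual degrees of freedom), with Benjamini-Hochberg adjustment over 22778 genes and a threshold of 0.05. FPKM values were used only as log2 (FPKM + 1) in limma 3.58.1 as an alternative, and DESeq2 1.42.0 was another. Fold changes given as such are ratios of mean CPM. The 52 gene lists and the genes described were chosen with earlier results of these data known. Named genes were the 10 largest increases and 10 largest decreases with a mean of at least 1 CPM, the 10 passing genes with the highest CPM, 5 per direction from the difference between naive and DMM mice, and members of the lists. Other genes printed are list members. Data were also simulated for the comparison of AP20187 with vehicle in naive mice, over 22778 genes. There, 28% of 100 genes changed by 1 on the log2 scale and 79% of 100 genes changed by 2 were recovered. The number of false calls in the simulated data was 0. Whether these values hold for the real libraries was not tested. Promoter windows and 31-base words came from RefSeq (GRCm38.p6) and a GENCODE transcript set, which are not the build of the counts. Some genes covered by these rules are not reported here.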

Additional observations from a re-analysis of the deposited data

Results flagged for a closer look

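In 221 groups of 4 or 5 naive libraries checked for the described genes, 18 held a library set apart by a gap larger than Dixon's 95% critical value. Chance gives about 1 in 20 only for independent, normally distributed values. CPM values of genes from the same libraries need not be so, and the 18 cannot be set against that rate. AP20187 library 3 stood apart in C1qb at 131.8 CPM, Il34 at 26.49, Blk at 0.473, Trpv1 at 10.68, Apod at 17510 and Mmp3 at 14.27 CPM. AP20187 library 1 stood apart in Myl3 at 8.543 CPM and AP20187 library 5 in Mt2 at 20.77 CPM. Vehicle library 3 stood apart in Adgre1 at 43.6 CPM, Klhl31 at 1.853, Eno3 at 28.71, Stfa1 at 0.08 and Saa3 at 0.05333 CPM. Vehicle library 4 stood apart in Pecam1 at 136.4 CPM, Selp at 6.55, Sele at 0.5324, Nos2 at 0.1936 and Cstdc5 at 0.09681 CPM. In Stfa1, Saa3, Nos2 and Cstdc5 the other vehicle libraries were at 0, so any count in a single library would have stood apart.

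The log2 fold change in DMM mice minus that in naive mice passed the test of the difference in 14 described genes (edgeR, adjusted over all genes). It was -11.06 for Klhl31, -7.28 for Hrc, -5.55 for Myl3, -5.01 for Pgam2, -4.91 for Eno3, -2.94 for Pvalb and -2.54 for Gpnmb. It was 2.02 for Gad1, 2.10 for Gad2, 2.60 for Grin2c, 2.71 for Myh6, 3.89 for Cbln3, 8.47 for Slc6a5 and 8.50 for Gabra6. The sizes for Klhl31, Slc6a5 and Gabra6 follow from the prior count, since the mean of 1 AP20187 group was under the floor.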

How the results depend on the processing

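The total of 2548 passing genes in naive mice was 4356 with DESeq2, 4542 with limma voom and 4149 with limma on log2 FPKM. The 1962 higher genes became 3122 with voom. The 586 lower genes became 1553 with DESeq2, 1420 with voom, 2507 on FPKM, 915 without TMM and 317 without a filter on low counts. When 1 library was left out, the total ranged from 994 to 3452, the higher genes from 846 to 2461 and the lower genes from 148 to 991. The 26 genes that differed between naive and DMM mice became 223 with DESeq2, 53 with voom and 13 without the filter, and 12 to 57 when 1 library was left out. Of 170 named passing genes 122 passed without each of the 9 naive libraries in turn, 140 in every other setting and 120 in both, and no named gene that passed changed direction. With the naive libraries alone 2693 genes passed, and 2310 with the replicate block added. Against the naive libraries alone, adding the block raised 9 counts of list members by over 1.5 times and lowered 12. Counts of lower genes went from 2 to 6 for nociceptors, from 1 to 5 for MHC class II (H2-Aa at adjusted p = 0.0499 by edgeR with the block), from 8 to 5 for central neurons and from 1 to 0 for satellite glia. The labels do not say whether replicate numbers pair the samples. Correlations of same-numbered libraries were 0.0235, 0.301, -0.0822 and 0.183, and those of differently numbered libraries -0.262 to 0.199. So few values cannot decide whether the numbers pair the samples, and the block is a check only. At this depth, genes below 3 counts per library were not detectable.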
